A study of Homo sapiens with 6 samples.

Results

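The genes described here are 40 members of the BMP, activin and TGF-beta signalling pathways, chosen by symbol from the 19923 protein-coding genes of the deposited count tables. They are 10 ligands, 10 receptors and coreceptors, 6 signalling SMADs, 5 intracellular inhibitors, 4 extracellular antagonists, 1 latency protein and the 4 ID genes. All 40 symbols were found. A ligand of this superfamily brings together type I and type II receptor kinases at the cell surface, and the type I receptor then phosphorylates receptor-regulated SMAD proteins. SMAD1, SMAD5 and SMAD9 carry BMP signals, SMAD2 and SMAD3 carry TGF-beta and activin signals, and both sets join SMAD4 to act on genes in the nucleus. In the sympathetic lineage from which neuroblastoma arises, BMPs are known for directing neural crest cells towards noradrenergic neurons, and the ID genes are classic BMP targets whose products hold back basic helix-loop-helix transcription factors.

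The libraries came from Kelly, an established MYCN-amplified human neuroblastoma line with a wild-type genotype label, so both groups share that background. Cells received a control siRNA (siControl) or an siRNA against METTL3 (siMETTL3) by lipid transfection and were collected after 72 hours, with 3 libraries in each group. METTL3 is the enzyme that places N6-methyladenosine marks on mRNA, and the comparison asks how its depletion changes gene expression in these cells. The labels name 1 cell line, give no siRNA sequence and do not say whether replicates were separate cultures, so p-values measure only the spread between these samples, which may be technical.

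Levels are given as CPM, counts relative to the library's total after TMM (trimmed mean of M-values) scaling, and FDR is the p-value of edgeR's quasi-likelihood test adjusted over all genes tested, with a threshold of 0.05. Total counts were between 15430000 and 21565013 per library, with siControl replicate 3 the shallowest. Libraries of siControl varied more among themselves than those of siMETTL3: the correlation of log2 CPM between libraries of a group was 0.987 to 0.992 in siControl and 0.993 to 0.994 in siMETTL3. METTL3 itself had 53.5, 52.8 and 56.2 CPM in the siControl libraries and 33, 31.8 and 34.3 CPM in the siMETTL3 libraries (log2 fold change -0.71, SE 0.0696, edgeR FDR 4.68e-06), so that 61.0% of its siControl level remained. This level is of reads over the whole METTL3 span, introns included. TOX4, on the opposite strand, overlaps 7.9% of that span (log2 fold change -0.20, edgeR FDR 0.0431). Markers of noradrenergic neuroblastoma cells were detected for all 9 listed genes and summed to between 3459 and 3701 CPM in siControl and between 4453 and 4811 CPM in siMETTL3, with 5 higher and 2 lower past the threshold. The 9 mesenchymal or fibroblast markers summed to 135 to 155 CPM in siControl and 128.5 to 135.1 CPM in siMETTL3, of which PDGFRB alone made up 84.8 and 82.9 CPM on average. Of these 9, ACTA2 was lower (15.8 to 6.37 CPM, edgeR FDR 6.20e-06), COL1A1 was higher (2.96 to 5.26 CPM, edgeR FDR 0.0200), and COL1A2, DCN and LUM were near 0. The 4 Schwann cell markers summed to 2.59 to 3.50 CPM in siControl and 3.99 to 5.51 CPM in siMETTL3, without overlap, mostly from SOX10, and none passed the threshold. The 5 white blood cell markers summed to at most 0.682 CPM. The 3 endothelial markers summed to 4.98 to 5.91 CPM in siControl and 6.95 to 9.25 CPM in siMETTL3, mostly from VWF. The part of these marker shifts in the results on the pathway genes was not tested. In such bulk samples, fewer cells with a transcript and less transcript per cell cannot be told apart.

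After METTL3 knockdown, pathway genes changed in both directions. Over all 15311 genes tested, 18.6% were higher and 19.2% lower. The small counts by role given here were not tested against these shares. Of the 4 tested TGF-beta and activin ligand genes, 3 were higher, with TGFB3 up 2.59-fold and INHBA, an activin subunit, up 3.85-fold. The TGFB3 reads cannot be told apart from those of IFT43, whose span holds TGFB3. INHBA was at a low level, with 8 to 14 counts in siControl and 44 to 50 counts in siMETTL3. Of the 5 intracellular inhibitors of signalling, 3 were higher: SMAD6 rose 1.69-fold, SMURF1 1.43-fold and SMAD7 1.28-fold. The others, SMURF2 (log2 fold change 0.01) and BAMBI (log2 fold change -0.36), did not pass the threshold. The SMURF1 span overlaps that of another gene, TRRAP, over 20.05% of its length. The type II receptor gene ACVR2B rose 1.41-fold, whereas the type I receptor gene TGFBR1, the signal transducer SMAD1 and LTBP1, which holds TGF-beta latent in the matrix, fell. The SMAD1 call was lost in 5 of the fits that each left out a library. None of the 4 ID genes passed the threshold in either direction.

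Of the 40 genes, 33 had enough counts to be tested and 7 did not. At an edgeR FDR under 0.05, 10 of the 33 (30.3%) were higher in siMETTL3 and 3 (9.09%) were lower. Over all 15311 genes tested the shares were 18.6% higher and 19.2% lower, or 37.8% in either direction, against 39.4% of the 33. The share of the members called was therefore near the background, and the split between the directions was not tested. The libraries of the groups did not overlap for 15 of the 33 (45.5%), compared with 49.9% of all tested genes. The median log2 fold change of the 33 was 0.035, with a range of -0.62 to 1.95, beside a median of -0.0021 over all tested genes.

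**Figure D1:**
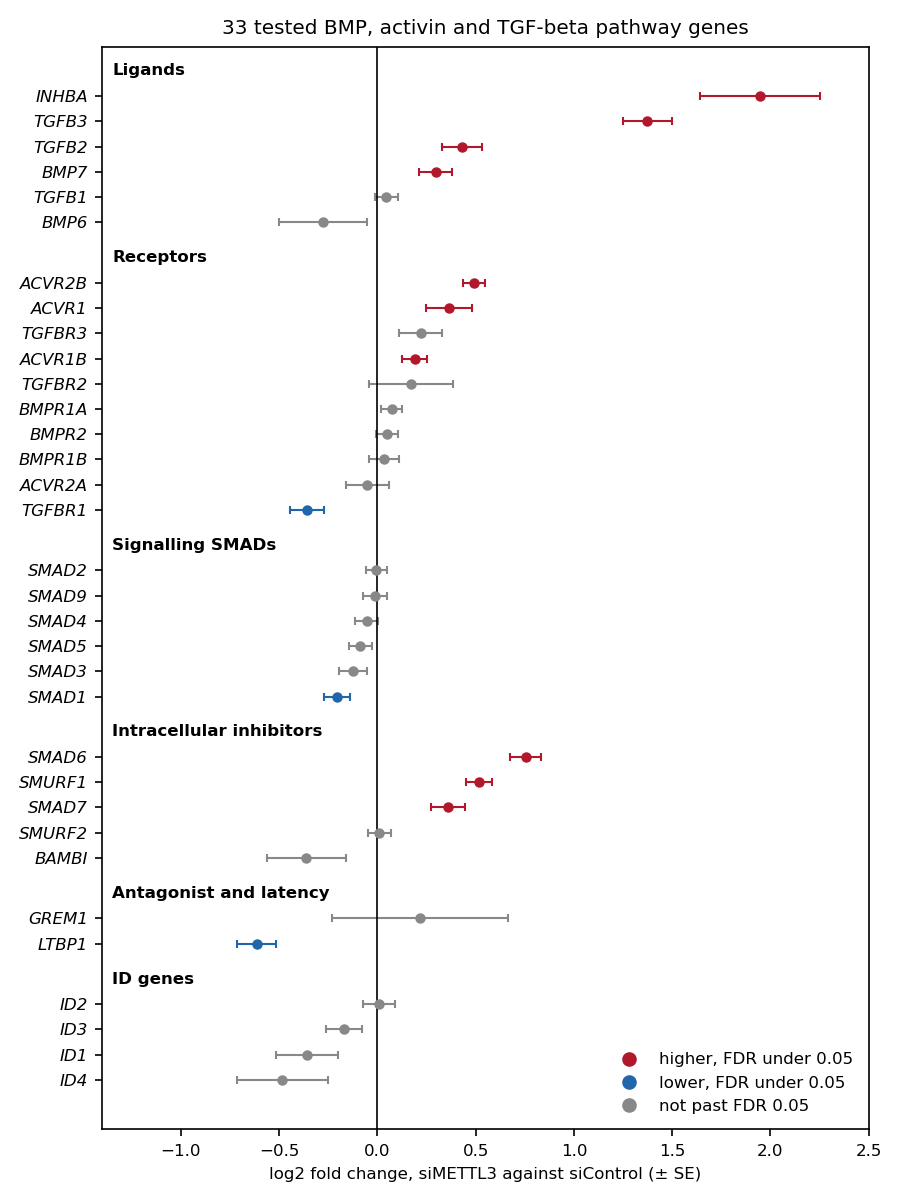
Log2 fold change of siMETTL3 against siControl (x axis, bars are ± 1 SE) for the 33 tested members, grouped by role, with colour giving the call at an edgeR FDR of 0.05. INHBA (1.95) and TGFB3 (1.37) lie farthest to the right, the 6 signalling SMADs lie left of 0 (SMAD2 and SMAD9 by 0.01, with the other sign under total count scaling), and none of the 4 ID genes passed the threshold.

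Among the ligands, TGFB3 was the gene with the clearest separation. It had 14.3, 13.1 and 9.22 CPM in the siControl libraries and 32.6, 32 and 31.2 CPM in the siMETTL3 libraries. Every siMETTL3 library stood above every siControl library, and the mean went from 12.2 ± 2.64 to 31.9 ± 0.721 CPM (SD, n = 3; log2 fold change 1.37, SE 0.125, edgeR FDR 3.20e-06). TGFB3 (chr14:75958099-75982991, GRCh38, minus strand) lies wholly within the span of IFT43, a gene of intraflagellar transport on the opposite strand, and the counts do not use strand. Reads over TGFB3 are thus also counted for IFT43, which rose by 0.52 on the log2 scale (edgeR FDR 4.96e-05). With the TGFB3 counts subtracted, the IFT43 reads outside the TGFB3 span had 47.8, 48.5 and 44.8 CPM in siControl and 55.6, 52.2 and 52.1 CPM in siMETTL3. The siMETTL3 to siControl ratio of means was 1.13 outside the TGFB3 span and 2.62 within it, so the increase was concentrated in the TGFB3 span. Which gene's RNA gave the reads inside the span cannot be told apart.

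INHBA encodes the beta A subunit of activin A. Its counts were low: 14, 11 and 8 counts in siControl and 50, 48 and 44 counts in siMETTL3, or 0.649, 0.55 and 0.531 CPM in the siControl libraries and 2.43, 2.21 and 2.14 CPM in the siMETTL3 libraries. All siMETTL3 libraries were above all siControl libraries (log2 fold change 1.95, SE 0.306, edgeR FDR 0.000255), and the gene remained the least abundant of the called members in both groups. TGFB2 had 17.5, 16.2 and 13.8 CPM in the siControl libraries and 22.3, 21.3 and 20.7 CPM in the siMETTL3 libraries, again with no overlap (log2 fold change 0.43, SE 0.103, edgeR FDR 0.00504). BMP7, a BMP ligand of the developing nervous system, had 256, 236 and 194 CPM in the siControl libraries and 277, 284 and 283 CPM in the siMETTL3 libraries. The siMETTL3 libraries lay close together and above all siControl libraries, which were spread over a wider range (log2 fold change 0.30, SE 0.0832, edgeR FDR 0.0138). The call for BMP7 was lost without siMETTL3 replicate 2 (FDR 0.0561) and without siMETTL3 replicate 3 (FDR 0.0530). Without siControl replicate 3, its lowest siControl library, the BMP7 log2 fold change was 0.19 (FDR 0.00316), and the FDR over all alternatives was 0.000222 to 0.0561.

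The other tested ligands did not pass the threshold. TGFB1 had 119 to 132 CPM in siControl and 124 to 134 CPM in siMETTL3, with overlapping groups (log2 fold change 0.04, edgeR FDR 0.589). Its span shares sequence with 4 other genes of the tables, among them CCDC97 over 28.1% of its length. BMP6 had 3.6 to 6.44 CPM in siControl and 3.4 to 4.38 CPM in siMETTL3 (log2 fold change -0.28, edgeR FDR 0.358). On a scale of mean CPM per kilobase of the canonical transcript, the most abundant ligands in siControl were BMP7 at 56.9 ± 7.88 and TGFB1 at 45 ± 2.2 (SD, n = 3), followed by TGFB3 at 3.55 ± 0.769, TGFB2 at 2.7 ± 0.319, BMP6 at 1.25 ± 0.396 and INHBA at 0.0954 ± 0.0105. Counts cover whole gene spans with introns while this scale divides by transcript length, so it orders genes only roughly, and the TGFB3 value holds any IFT43 reads in its span.

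The remaining ligands had too few counts to test. BMP2, whose product is a potent BMP ligand, had 0 counts in all 6 libraries, where 3 counts would have been 0.138 to 0.199 CPM. Most read pairs gave 2 counts, so 3 counts do not stand for 3 independent reads. BMP4 had 2, 2 and 6 counts in siControl and 6, 3 and 0 counts in siMETTL3. BMP5 had 0, 0 and 2 counts in siControl and 0, 2 and 4 counts in siMETTL3, and INHBB, the beta B subunit of activin, had 0, 2 and 0 counts in siControl and 0, 0 and 2 counts in siMETTL3. Among the 5 BMP genes listed, BMP7 therefore made up most of the ligand reads, with BMP6 at a low level.

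**Figure D2:**
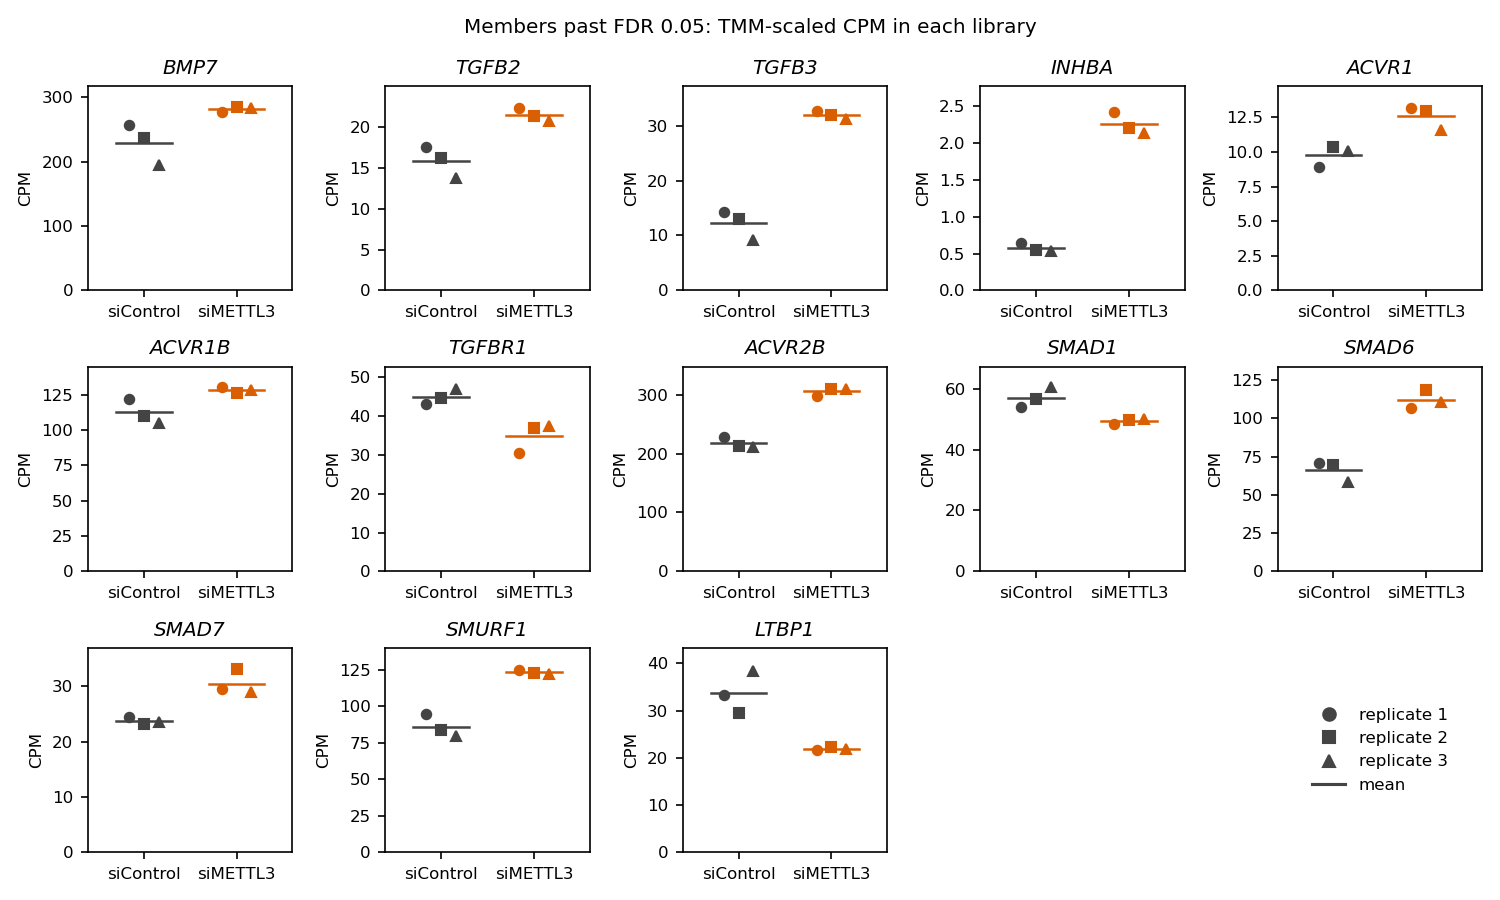
TMM-scaled CPM (y axis, from 0) in each library for the 13 members past an edgeR FDR of 0.05, with a symbol for each replicate number and a line at the group mean. The 10 genes that were higher and the 3 that were lower (TGFBR1, SMAD1 and LTBP1) each show siMETTL3 libraries that do not overlap the siControl libraries. The genes were chosen by FDR from these same libraries, and the groups did not overlap for 49.9% of all tested genes.

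Among the receptors, ACVR2B had the smallest FDR. This type II receptor of activins and several BMPs had 228, 213 and 211 CPM in the siControl libraries and 298, 309.5 and 310.3 CPM in the siMETTL3 libraries. The groups were far apart relative to their spread (from 218 ± 9.23 to 306 ± 6.93 CPM, log2 fold change 0.49, SE 0.0556, edgeR FDR 1.65e-05). The other type II receptor genes did not pass the threshold: BMPR2 had 119 to 122 CPM in siControl and 119 to 128 CPM in siMETTL3 (log2 fold change 0.05, 95% interval from the SE -0.06 to 0.16), ACVR2A had 17.5 to 22.2 CPM in siControl and 17.4 to 20.4 CPM in siMETTL3 (95% interval -0.27 to 0.17) and TGFBR2 had 2.78 to 3.5 CPM in siControl and 2.73 to 4.04 CPM in siMETTL3 (95% interval -0.25 to 0.59). TGFBR2 is the type II receptor required for TGF-beta ligands, and it was the least abundant receptor of the list, at 0.677 ± 0.0845 CPM per kilobase in siControl against 18.5 ± 0.78 for ACVR2B.

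TGFBR1, the type I receptor for TGF-beta ligands, moved the other way. It had 43.1, 44.6 and 47.1 CPM in the siControl libraries and 30.6, 36.9 and 37.4 CPM in the siMETTL3 libraries. The siMETTL3 libraries were all below the siControl libraries, and replicate 1 was the lowest (from 44.9 ± 2.01 to 35 ± 3.8 CPM, log2 fold change -0.36, SE 0.086, edgeR FDR 0.00483). ACVR1B, a type I receptor for activins, had 122, 109.9 and 105 CPM in the siControl libraries and 130.2, 126 and 128 CPM in the siMETTL3 libraries (log2 fold change 0.19, SE 0.0634, edgeR FDR 0.0298). ACVR1, a type I receptor for BMPs, had 8.95, 10.4 and 10.1 CPM in the siControl libraries and 13.2, 12.9 and 11.6 CPM in the siMETTL3 libraries (log2 fold change 0.36, SE 0.118, edgeR FDR 0.0258). Both receptor genes were higher in every siMETTL3 library than in any siControl library, but both calls were close to the threshold. The ACVR1B call was lost without siControl replicate 2 or without any 1 of the siMETTL3 libraries (FDR 0.0736 to 0.119, and 0.00208 to 0.119 over all alternatives). The ACVR1 call was lost when siControl replicate 1 or either of siMETTL3 replicates 1 and 2 was left out (FDR 0.0816 to 0.103), and with an offset that removes the trend of counts with gene span (FDR 0.0649), with 0.0199 to 0.103 over all alternatives.

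The BMP type I receptor genes BMPR1A and BMPR1B did not pass the threshold. BMPR1A had 119 to 127 CPM in siControl and 131 to 132 CPM in siMETTL3, without overlap but with a small difference (log2 fold change 0.07, 95% interval -0.03 to 0.18). BMPR1B had 161 to 202 CPM in siControl and 177 to 187 CPM in siMETTL3 (log2 fold change 0.03, 95% interval -0.11 to 0.18), and passed it without siControl replicate 3 (log2 fold change 0.14, FDR 0.0391, with 0.0391 to 0.981 over all alternatives). Per kilobase of transcript, BMPR1B had 31.8 ± 3.9 CPM in siControl against 18.5 ± 0.78 CPM for ACVR2B, whereas by CPM alone ACVR2B was above BMPR1B (218 against 178 CPM). Introns make up 98.6% of the BMPR1B span and 69.98% of the ACVR2B span, so the order of these receptor genes is not settled by these counts. TGFBR3, the coreceptor betaglycan, had 14.7, 17.6 and 18.5 CPM in siControl and 18.7, 19.1 and 21.2 CPM in siMETTL3. Its siMETTL3 libraries were all above the siControl libraries without passing the threshold (log2 fold change 0.22, edgeR FDR 0.129), and it too was past it without siControl replicate 3 (log2 fold change 0.28, FDR 0.0409, with 0.0409 to 0.394 over all alternatives).

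Of the 6 signalling SMAD genes, 1 passed the threshold. The log2 fold changes of all 6 were below 0, but those of SMAD2 (-0.01) and SMAD9 (-0.01) were small enough to change sign under total count scaling (0.02 and 0.01), as did SMAD2 under upper quartile scaling (0.01). SMAD1, which transduces BMP signals, had 53.8, 56.7 and 60.4 CPM in the siControl libraries and 48.5, 49.7 and 49.96 CPM in the siMETTL3 libraries. The groups did not overlap and the decrease was small (log2 fold change -0.20, SE 0.0666, edgeR FDR 0.0264). That call was lost in 5 of the 6 fits that left out 1 library, the exception being the fit without siControl replicate 1 (FDR 0.0586 to 0.105 in the 5, and 0.00662 to 0.105 over all alternatives). The other BMP SMAD genes did not pass the threshold, SMAD5 at 130.5 to 142 CPM in siControl and 122 to 131 CPM in siMETTL3 (95% interval -0.20 to 0.03) and SMAD9 at 57.8 to 60.9 CPM in siControl and 57.1 to 60.2 CPM in siMETTL3 (95% interval -0.14 to 0.11). SMAD2 had 138 to 142 CPM in siControl and 134 to 143 CPM in siMETTL3 (95% interval -0.11 to 0.10), and SMAD4, the shared partner, had 87.4 to 95.6 CPM in siControl and 86.9 to 89.8 CPM in siMETTL3 (95% interval -0.17 to 0.06). SMAD4 shares 52.5% of its span with another gene of the tables, AC091551.1. SMAD3, which transduces TGF-beta and activin signals, had 79.3, 78.9 and 66.6 CPM in siControl and 68.6, 69.5 and 68.9 CPM in siMETTL3. Its siControl replicate 3 lay below all siMETTL3 libraries while the other siControl libraries lay above them, and the gene did not pass the threshold (log2 fold change -0.12, edgeR FDR 0.199). Without that library the SMAD3 value was -0.20 (FDR 0.00955), and with an offset for gene span it was -0.19 (FDR 0.0492), within an FDR of 0.00955 to 0.494 over all alternatives.

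Both inhibitory SMAD genes rose, and neither shares its span with another gene of the tables. SMAD6, whose product binds BMP type I receptors and SMAD1 and blocks signalling, had 71.1, 69.5 and 58.2 CPM in the siControl libraries and 107, 118 and 111 CPM in the siMETTL3 libraries. The lowest siMETTL3 library was well above the highest siControl library, and the mean rose from 66.3 ± 7.02 to 112 ± 5.92 CPM (log2 fold change 0.75, SE 0.0765, edgeR FDR 6.72e-06). SMAD7, which inhibits both branches, had 24.5, 23.3 and 23.5 CPM in the siControl libraries and 29.4, 33.1 and 28.9 CPM in the siMETTL3 libraries. Its groups were also apart, by a smaller margin (from 23.8 ± 0.642 to 30.5 ± 2.27 CPM, log2 fold change 0.36, SE 0.0852, edgeR FDR 0.00461). SMAD6 was the more abundant of the pair per kilobase of transcript, at 17.3 ± 1.83 CPM in siControl and 29.3 ± 1.54 CPM in siMETTL3, against 7.11 ± 0.193 and 9.12 ± 0.68 CPM for SMAD7. Both genes stayed past the threshold in every alternative fit, with log2 fold changes of 0.67 to 0.81 for SMAD6 and 0.29 to 0.40 for SMAD7.

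SMURF1 and SMURF2 encode ubiquitin ligases that mark SMADs and receptors for degradation, and 1 of the pair passed the threshold. The difference between them was not tested. SMURF1 had 94.6, 83.6 and 79.7 CPM in the siControl libraries and 125, 123 and 122 CPM in the siMETTL3 libraries, with no overlap (log2 fold change 0.52, SE 0.0668, edgeR FDR 4.92e-05). SMURF2 had 95.8 to 101 CPM in siControl and 97.1 to 102 CPM in siMETTL3 (95% interval -0.10 to 0.12). The SMURF1 span overlaps TRRAP, on the opposite strand, over 20.05% of its length, and reads there count for both genes. TRRAP was higher as well, from 422.8 to 481.6 CPM on average (log2 fold change 0.19, edgeR FDR 0.0130). The mean of SMURF1 went from 86.0 to 123.3 CPM, and the part of TRRAP reads in this rise was not tested. BAMBI, a decoy receptor without a kinase domain, had 10.9, 14.3 and 16.5 CPM in the siControl libraries and 7.68, 11.2 and 13.4 CPM in the siMETTL3 libraries. Its libraries overlapped between the groups and differed widely within them (log2 fold change -0.36, edgeR FDR 0.185).

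Promoters of the members were read from RefSeq as the 250 bases before an annotated gene start (GRCh38.p14), which were given for 37 of the 40. They were searched on both strands for GGCGCC, a GC-rich element known to bind SMAD1 and SMAD5, for GTCTAGAC, the palindrome of the SMAD3 and SMAD4 box, and for CAGACA, which holds that box in its reverse complement. None of these strings contains another. For some genes, among them TGFBR1 and TGFBR3, this window lies inside the span used for the counts, and any other starts of a gene were not searched. The palindrome GTCTAGAC occurred in 1 of the 37 promoters, that of SMAD6, where it began 12 bases before the start, and in 0.176% of the 27305 promoters in the table. GGCGCC was found in 11 of the 37 (29.7%), beside 16.1% of all promoters and 24.9% of those of tested genes, and CAGACA in 4 of the 37 (10.8%), beside 13.6% of all promoters and 10.2% of those of tested genes. The median share of G and C was 69.2% in the 37, 58.0% in all promoters and 64.4% in those of tested genes. The part of base composition in the motif shares was not tested. Among the 9 higher members with a promoter, 2 held GGCGCC, 1 held GTCTAGAC and 2 held CAGACA, and none of the 3 motifs was found for the 3 lower members or the 4 ID genes, which says only that these letters are not in this window. The following 4 promoters, all on the plus strand, show these motifs in capitals: SMAD6 (chr15:66701986-66702235) with the palindrome, ACVR1B (chr12:51951449-51951698) with 4 copies of GGCGCC, BAMBI (chr10:28677271-28677520) with 3 copies of GGCGCC, and TGFB2 (chr1:218345086-218345335) with CAGACA 53 bases before the start. They are shown as examples, 3 members that rose and 1 that did not pass the threshold. Of the 20 members not past the threshold, 6 held GGCGCC and 2 held CAGACA. Of the 5 untested members with a promoter, 3 held GGCGCC. A match describes the letters in the window and no binding was measured.
SMAD6: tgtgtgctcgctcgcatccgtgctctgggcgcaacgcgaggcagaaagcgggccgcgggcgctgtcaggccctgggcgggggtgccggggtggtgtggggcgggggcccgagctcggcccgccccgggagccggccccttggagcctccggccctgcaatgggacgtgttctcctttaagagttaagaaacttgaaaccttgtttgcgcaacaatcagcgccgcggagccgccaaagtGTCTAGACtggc
ACVR1B: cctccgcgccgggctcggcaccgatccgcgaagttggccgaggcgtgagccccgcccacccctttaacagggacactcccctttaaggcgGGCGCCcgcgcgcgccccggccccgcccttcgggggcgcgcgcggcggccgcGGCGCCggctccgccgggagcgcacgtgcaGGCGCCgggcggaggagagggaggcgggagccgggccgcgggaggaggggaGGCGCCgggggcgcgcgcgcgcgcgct
BAMBI: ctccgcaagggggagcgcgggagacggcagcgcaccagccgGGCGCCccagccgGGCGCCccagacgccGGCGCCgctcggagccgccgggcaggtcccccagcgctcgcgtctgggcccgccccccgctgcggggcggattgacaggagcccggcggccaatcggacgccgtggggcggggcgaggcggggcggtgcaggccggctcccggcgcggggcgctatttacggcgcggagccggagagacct
TGFB2: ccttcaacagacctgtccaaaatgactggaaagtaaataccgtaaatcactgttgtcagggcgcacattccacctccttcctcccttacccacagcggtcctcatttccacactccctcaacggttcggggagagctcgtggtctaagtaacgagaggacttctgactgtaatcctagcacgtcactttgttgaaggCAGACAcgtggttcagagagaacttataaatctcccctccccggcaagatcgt

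The 4 listed genes of secreted antagonists, which sequester ligands, had few or no counts. Of the BMP antagonists, NOG had 0, 2 and 0 counts in siControl and 2, 0 and 2 counts in siMETTL3, CHRD had 4, 4 and 9 counts in siControl and 9, 6 and 2 counts in siMETTL3, and FST, which binds activins, had 0 counts in all 6 libraries. GREM1, which binds BMPs, was tested at a low level, with 13, 9 and 14 counts in siControl and 22, 15 and 10 counts in siMETTL3. The GREM1 groups overlapped, and the 95% interval of its log2 fold change, -0.66 to 1.09, was too wide to separate an increase from a decrease.

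LTBP1, a matrix protein that binds latent TGF-beta and keeps it stored outside the cell, had 33.4, 29.4 and 38.5 CPM in the siControl libraries and 21.7, 22.4 and 21.9 CPM in the siMETTL3 libraries. The siMETTL3 libraries were nearly identical to each other and lay below every siControl library (from 33.8 ± 4.54 to 22 ± 0.36 CPM, log2 fold change -0.62, SE 0.0984, edgeR FDR 0.000288). LTBP1 (chr2:32946953-33399509, GRCh38, plus strand) overlaps no other gene of the tables. It had the largest decrease of the 33 members tested, and its log2 fold change was -0.71 to -0.52 over the alternative fits.

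The ID genes, the canonical readout of BMP signalling, did not differ beyond the threshold. ID1 had 17.6, 24.9 and 29.1 CPM in the siControl libraries and 17.7, 20.5 and 17 CPM in the siMETTL3 libraries. Only siControl replicate 1 overlapped the siMETTL3 range (log2 fold change -0.36, SE 0.159, edgeR FDR 0.0982). Per kilobase of transcript, ID2 had 66.4 ± 8 CPM and ID3 had 62.1 ± 8.52 CPM in siControl, an order that these counts do not settle. ID2 had 75.4, 87.2 and 96.1 CPM in the siControl libraries and 83, 84.7 and 92 CPM in the siMETTL3 libraries. Its groups overlapped fully (log2 fold change 0.01, 95% interval -0.15 to 0.17). ID3 had 51.7, 57.6 and 67.7 CPM in the siControl libraries and 48.9, 55.4 and 52.6 CPM in the siMETTL3 libraries (log2 fold change -0.17, edgeR FDR 0.167), and its sign turned with an offset for gene span (log2 fold change 0.03, FDR 0.829). ID4 had 4.26, 5.41 and 5.84 CPM in the siControl libraries and 2.38, 4.04 and 4.58 CPM in the siMETTL3 libraries (log2 fold change -0.48, edgeR FDR 0.116). The groups overlapped for ID3 and ID4.

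The side of the threshold on which ID1, ID3 and ID4 fell depended on the fit. siControl replicate 3 had the highest siControl value of ID1, ID2, ID3, ID4 and BAMBI alike. siControl replicate 1 had the lowest siControl value of each. Without it, ID1 had a log2 fold change of -0.54 (FDR 0.000502), ID3 of -0.26 (FDR 0.0155), ID4 of -0.61 (FDR 0.0478) and BAMBI of -0.51 (FDR 0.0365), all past the threshold, while ID2 had -0.08 and an FDR of 0.374. With replicate number as a block, ID1 (FDR 0.0461), ID4 (FDR 0.0409) and BAMBI (FDR 0.0147) also passed it. siMETTL3 replicate 1 was in turn the lowest siMETTL3 library for ID2, ID3, ID4 and BAMBI, and without it ID4 had -0.25 (FDR 0.398) and BAMBI -0.17 (FDR 0.508). The ID1 log2 fold change was -0.54 to -0.20 with 1 library left out and -0.54 to -0.14 over all alternatives. Over all alternatives the FDR was 0.000502 to 0.411 for ID1, 0.0155 to 0.829 for ID3, 0.0409 to 0.398 for ID4 and 0.0147 to 0.508 for BAMBI. Total counts of siControl replicate 1 were 21526555, within the range of the other libraries.

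**Figure D3:**
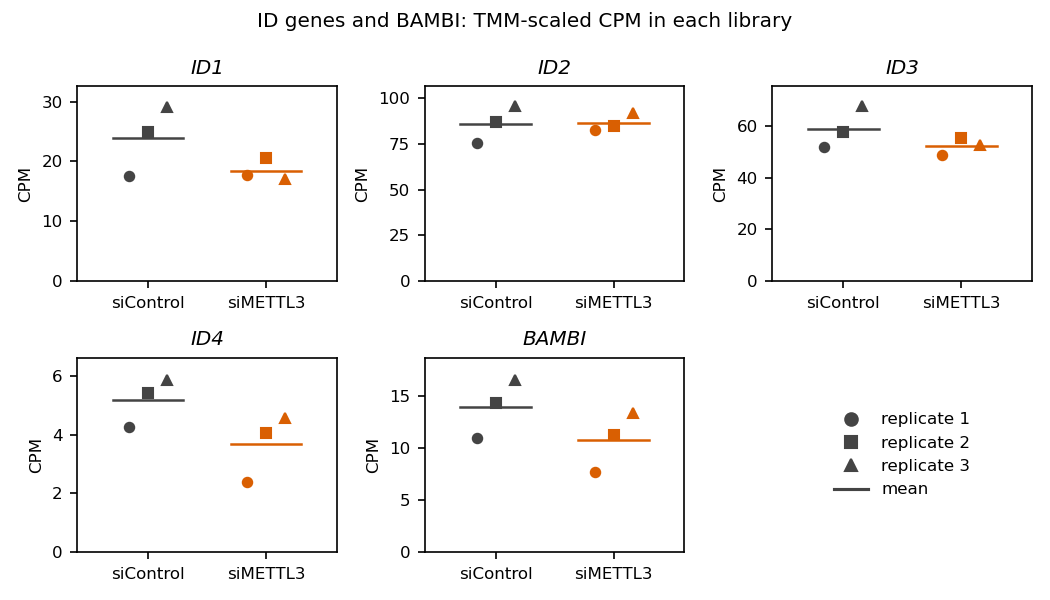
TMM-scaled CPM (y axis, from 0) of ID1, ID2, ID3, ID4 and BAMBI in each library, with a symbol for each replicate number and a line at the group mean. siControl replicate 1 is the lowest siControl library in all 5 panels, and the groups overlap in each of them.

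A wider list of 75 further genes of the same pathways gave the context, and 60 of them were tested. Of the 60, 10 (16.7%) were higher and 8 (13.3%) were lower, beside 18.6% and 19.2% of all tested genes, and their median log2 fold change was 0.028. ENG, the TGF-beta coreceptor endoglin, had 4.13, 3.05 and 2.46 CPM in the siControl libraries and 10.5, 11.3 and 10.8 CPM in the siMETTL3 libraries. The lowest siMETTL3 library was above the highest siControl library (log2 fold change 1.73, SE 0.173, edgeR FDR 5.76e-06). ENG is also an endothelial gene. Of the 3 endothelial markers, VWF was higher (4.66 to 7.54 CPM on average, edgeR FDR 0.00592), PECAM1 averaged 0.825 CPM in siControl and 0.409 CPM in siMETTL3 without overlap (edgeR FDR 0.143, log2 fold change -0.95), and CDH5 was near 0. Their part in the ENG result was not tested. INHBE, the beta E subunit of activin, had 3.62, 4.2 and 5.31 CPM in the siControl libraries and 1.46, 0.643 and 1.17 CPM in the siMETTL3 libraries, and so went in the opposite direction to INHBA (log2 fold change -1.99, SE 0.29, edgeR FDR 0.000134).

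Of the other genes of the wider list with the smallest FDR, 3 were higher. RGMA, a BMP coreceptor, was at 26.3 to 27.2 CPM in siControl and 31.9 to 37.8 CPM in siMETTL3 (log2 fold change 0.36, edgeR FDR 0.00378). PMEPA1, a TGF-beta target that in turn restrains SMAD2 and SMAD3, was at 60.1 to 80.2 CPM in siControl and 87.8 to 97.2 CPM in siMETTL3 (log2 fold change 0.40, edgeR FDR 0.004). LRRC32, which holds latent TGF-beta at the cell surface, was at 2.92 to 4.71 CPM in siControl and 6.23 to 6.52 CPM in siMETTL3 (log2 fold change 0.76, edgeR FDR 0.00507). The groups did not overlap for any of these 3 genes. Lower were FSTL1, a follistatin-like secreted protein, at 38.5 to 42 CPM in siControl and 26.9 to 31.8 CPM in siMETTL3 (log2 fold change -0.48, edgeR FDR 0.000539), TGIF1, a SMAD corepressor, at 16.3 to 19.2 CPM in siControl and 10.5 to 14.1 CPM in siMETTL3 (log2 fold change -0.53, edgeR FDR 0.00391), and KCP, a secreted BMP modulator, at 46.6 to 50.9 CPM in siControl and 34.6 to 40.4 CPM in siMETTL3 (log2 fold change -0.35, edgeR FDR 0.00285). The KCP span overlaps ATP6V1F, which was also lower (log2 fold change -0.51, edgeR FDR 0.000196). All 8 genes named from the wider list kept their calls in the alternative fits in which they were tested.

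**Figure D4:**
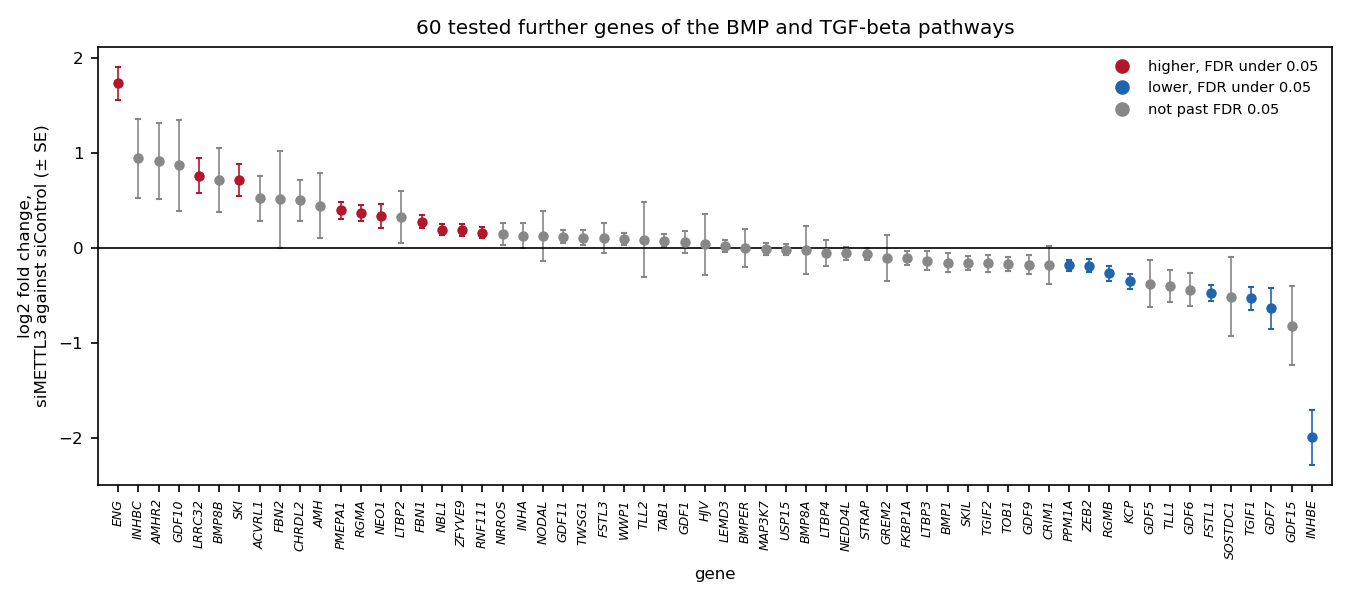
Log2 fold change of siMETTL3 against siControl (y axis, bars are ± 1 SE) for the 60 tested genes of the wider pathway list (x axis, in order of value), with colour giving the call at an edgeR FDR of 0.05. ENG (1.73) has the highest value and INHBE (-1.99) the lowest among the genes past the threshold.

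Genes known to respond to the pathways did not move in 1 direction. Of 22 listed, 5 of which are also members, 18 were tested. Of these, 5 (27.8%) were higher and 1 (5.56%) was lower, or 33.3% in either direction, beside 18.6%, 19.2% and 37.8% of all tested genes. The median of their log2 fold changes was -0.06. HEY1, a transcriptional repressor induced by BMP, had 12.9, 17.7 and 14.2 CPM in the siControl libraries and 25.3, 25.7 and 26.2 CPM in the siMETTL3 libraries, with no overlap (log2 fold change 0.78, SE 0.113, edgeR FDR 0.000122). SMAD6, SMAD7 and PMEPA1 were higher too, while ID1, ID2 and ID3 did not pass the threshold. CCN2, a matricellular protein gene induced by TGF-beta, had 0 counts in all 6 libraries.

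The members' transcripts were also described by GGACT, a common form of the sequence in which METTL3 methylates adenosine. No methylation was measured in these libraries. The median number of GGACT per kilobase of canonical transcript was 0.882 for the 33 tested members and 0.929 for all tested genes. It was 0.772 for the 10 members that rose and 0.462 for the 3 that fell, beside 0.992 and 0.861 for all genes that were higher and lower. SMAD6 had 2 copies (0.52 per kilobase), TGFB3 had 2 (0.58), INHBA had 2 (0.33) and ACVR2B had 12 (1.02). ID1, with a transcript of 983 bases, had none.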

How the data were processed

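The authors deposited unnormalised read counts for each gene, made with featureCounts 1.5.3 and a GENCODE release 33 protein-coding annotation, per the file headers. The submitters' processing notes name the genome build GRCh38 and FastQC 0.11.5, Trimmomatic 0.36, HISAT2 2.1.0 and Subread 1.5.3. Per the file headers, reads were counted over whole gene spans, introns included, once for each gene they overlapped, without a strand option and without counting pairs as fragments. Of genes with 1 to 10 counts, 75.4% to 82.2% per library had an even count, so most pairs gave 2 counts and the reads of a pair are not independent. Intervals for a count of 0 cover counting error only.

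Sample titles gave the groups and replicate numbers. The 6 libraries were compared in edgeR 4.0.16 (R 4.3.3) with filterByExpr (15311 genes kept), trimmed mean of M-values (TMM) scaling, robust glmQLFit, the quasi-likelihood F-test without covariates and Benjamini-Hochberg adjustment over all genes tested (FDR, threshold 0.05). All FDR values come from this test unless another is named. CPM is relative to TMM-scaled library sizes. SE is the size of a log2 fold change over the root of its F statistic, and a 95% interval is 1.96 SE to each side. The same fit was tested on simulated data in which some genes had known changes.

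The members and lists were chosen with earlier results of these data known. METTL3 and all members are accounted for, and from the wider list the 8 genes with the smallest FDR are named, and from the response genes those under that FDR whose mean log2 CPM is 3 or more. CRIPTO was found as TDGF1. Some listed genes are not reported here. Levels per kilobase and GGACT use the canonical transcript of a later GENCODE release.

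Alternatives were other scalings, other filters, DESeq2 1.42.0, limma-voom (limma 3.58.1), dispersion without the robust option, a replicate block, genes without overlaps, an offset for gene span and each library left out. A fit on counts divided by 2 was chosen after seeing the data.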

Additional observations from a re-analysis of the deposited data

How the results depend on the processing

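No value changed direction past a threshold. Of 386 values of the 33 tested members from alternatives with all 6 libraries, 381 stayed on their side of the threshold, 1 lost its call (ACVR1) and 4 gained one. Of 198 values with 1 library left out, 177 stayed, 14 lost and 7 gained a call. TGFB2, TGFB3, INHBA, TGFBR1, ACVR2B, SMAD6, SMAD7, SMURF1 and LTBP1 kept their calls in every alternative in which they were tested. INHBA was not tested when 10 counts were required in each library. TGFB3 and SMURF1, which overlap other genes, were not in the fit on genes without overlaps. With 1 library left out, 7 to 12 members were higher and 2 to 7 lower (7 without siControl replicate 1), 2091 to 3178 of all genes were higher and 2119 to 3216 lower, 6 to 11 genes of the wider list were higher and 4 to 10 lower, and the METTL3 log2 fold change was -0.741 to -0.688. On the 9518 tested genes without overlaps, 1852 were higher and 1898 lower, fewer because fewer genes were tested, and 6 of 42 genes of the wider list were higher. With the gene span offset, 6 of its 60 genes were higher and the METTL3 value was -0.67. Total count scaling moved the share of calls that were higher from 49.2% to 53.9%. DESeq2 called the same 13 members and 5367 genes in all.

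A replicate block gave 6166 called genes and 16 called members, which include the 13, with 6 lower in place of 3 (ID1, ID4 and BAMBI added). The labels share only a number between the groups. Same-numbered libraries correlated by 0.040 to 0.067 in their deviations from group means, each library most highly with its own number, a hint from the data at a low level that was not taken as pairing. The cause of these changes was not tested. Depth limits the members with the fewest reads, INHBA, GREM1 and the 7 untested genes.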

Other observations

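The following genes of the wider lists were picked after their values were seen. DLX5, a homeobox gene induced by BMP, had a low level that fell from 4.45 ± 0.413 to 2.38 ± 0.400 CPM (SD, n = 3; log2 fold change -0.90, edgeR FDR 0.00356). COL1A1, a collagen gene that responds to TGF-beta, went from 2.96 ± 1.27 CPM up to 5.26 ± 0.471 CPM with an edgeR FDR of 0.0200 (log2 fold change 0.86), but the call was lost without siControl replicate 2 (log2 fold change 0.55, FDR 0.0708), siMETTL3 replicate 2 (FDR 0.0683) or siMETTL3 replicate 3 (FDR 0.0805). Over all alternatives its FDR was 0.000306 to 0.0805. SKI, a SMAD corepressor, had 133, 107 and 81.0 CPM in siControl and 176, 185 and 166 CPM in siMETTL3 (log2 fold change 0.71, edgeR FDR 0.0178), while SKIL, its paralogue, did not pass the threshold (log2 fold change -0.16, edgeR FDR 0.0877). HJV, the BMP coreceptor hemojuvelin, differed more between the siControl libraries than between the groups, with 102, 124 and 219 CPM in siControl and 138, 161 and 156 CPM in siMETTL3 (edgeR FDR 0.944). While the coreceptor gene RGMA was higher, RGMB was lower, at 31.3 ± 1.27 CPM in siMETTL3 against 37.7 ± 1.79 CPM in siControl (edgeR FDR 0.0126, log2 fold change -0.27). The RGMB call was lost without siControl replicate 2 (FDR 0.0634) and without siMETTL3 replicate 1 (FDR 0.0680), within 0.00272 to 0.068 over all alternatives.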
